A study of Mus musculus with 145 samples.

Results

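Insertions of the ATP1 transposon were examined in 10 genes of cell cycle control and the p53 pathway, Trp53, Mdm2, Mdm4, Cdkn2a, Rb1, Rbl1, E2f3, Ccnd2, Ccnd3 and Cdk6, in mouse mammary tumours. The genes were chosen by name, and 8 of them had a gene region among the 13391 gene regions of the authors' table. Mdm4 and Ccnd2 had none. In these 8 regions lay 49 of the 101066 insertion sites that carried at least 10 reads and were assigned to a single tumour. All mice carried the WAP-Cre driver, the Cre-dependent alleles LSL-PB (the piggyBac transposase) and LSL-PIK3CA(H1047R), and the transposon donor ATP1, so that mating switched on transposase and PIK3CA mutant in the mammary gland together. The untreated group held 94 tumours by library (93 by title, since 1 library repeats a mouse and gland) from 23 mice. The resistant group held 51 tumours from 25 mice, as read from the titles, dosed every day with 30 mg/kg BYL719 (alpelisib, an inhibitor of PI3K alpha) from a volume of 250 mm3 on. A tumour counted as resistant when its volume rose in at least 3 measurements in a row within 3 weeks of dosing. Tumours are numbered within their group, and a tumour is called hit in a gene when a site of at least 10 reads lay in its region.

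The p53 protein, encoded by Trp53, halts the cell cycle or triggers cell death after damage or oncogene activity. MDM2 and MDM4 hold it down, and ARF, one product of Cdkn2a, blocks MDM2. The other product of Cdkn2a, INK4A, inhibits CDK4 and CDK6, the kinases that act with D-type cyclins to inactivate RB1 and its relative RBL1 and so release E2F factors such as E2F3. The piggyBac transposase inserts its transposon at the letters TTAA, and ATP1 carries elements that can either truncate a gene or drive its transcription, depending on position and orientation. Reads come from whole tumour DNA, so a small share of cells with an insertion and a poorly amplified insertion cannot be told apart.

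The letters at the insertion site are shown for the site with the most reads in each of the 8 regions. Each joins the 5′ and 3′ contexts of 4 letters that the authors deposited, with the TTAA target in capitals.
Trp53, untreated tumour 16, chr11:69586651: TTAAtatc
Mdm2, untreated tumour 15, chr10:117698471: TTAActaa
Cdkn2a, untreated tumour 56, chr4:89277336: TTAAccta
Rb1, resistant tumour 26, chr14:73318491: TTAAgaag
Rbl1, resistant tumour 40, chr2:157205239: TTAAaata
E2f3, resistant tumour 35, chr13:29942592: TTAAgcta
Ccnd3, resistant tumour 32, chr17:47554231: TTAAagta
Cdk6, untreated tumour 3, chr5:3412466: TTAAgcaa
Across the 49 sites, 47 lay at TTAA (95.9%), as did 96.0% of the 79924 sites outside chromosome 10. The exceptions were both in Rb1 of untreated tumours, at 73235285 (context tggtgtct, 39 reads) and at 73268453 (ctaaagac, 65 reads).

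Most of these insertions were minor ones in their tumours, as were most of all sites outside chromosome 10. The 49 sites had a median of 29 reads and a median rank of 570 when the sites of a tumour were ordered by reads. The best rank was 15, held by a Ccnd3 site, 4 sites were among the 100 strongest of their tumour, and 10 made up at least 0.1% of its reads. Those 4 were in Ccnd3, Cdkn2a, Rb1 and Rbl1, and 3 of them were in resistant tumours. Of all sites outside chromosome 10, where the transposon donor lies, 12.2% ranked among the 100 strongest, with a median of 39 reads and a median rank of 500. Their median percentage of a tumour's reads was 0.0408%, beside 0.0319% for the 49. The share of all sites with at least 0.1% of the reads was not counted. Nor was the split by group of all sites among the 100 strongest.

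Trp53, whose region spans chr11:69578359-69591873 (mm10, plus strand, identifier 22059), was hit in 1 of 94 untreated tumours (1.06%, exact 95% interval 0.0269 to 5.79%) and in 0 of 51 resistant tumours (upper 95% bound 6.98%). The single site, in untreated tumour 16, had 14 reads and rank 225, and lay in the orientation of the gene, 6292 bases past its start in RefSeq. Mdm2, the ubiquitin ligase of p53, spans chr10:117688875-117712758 (minus strand, identifier 17246) on the donor chromosome and was likewise hit in 1 untreated tumour and 0 resistant tumours. Its site in untreated tumour 15 had 20 reads and rank 674, and opposed the gene. Both of these tumours came from the same mouse. With 1 hit tumour each these genes cannot be tested between the groups, since the smallest two-sided Fisher exact p is then 0.352.

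Mdm4, the MDM2 relative that inhibits p53, and Ccnd2, which encodes cyclin D2, were looked up by their RefSeq bounds. No deposited site lay in Mdm4, and of 2 positions in Ccnd2 only 1 had reads, at most 2. With 0 of 145 tumours hit in either gene, the exact upper 95% bound was 2.51%.

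Cdkn2a, spanning chr4:89274473-89296619 (minus strand, identifier 12578), was hit in 2 of 94 untreated tumours (2.13%, 0.259 to 7.48%) and 1 of 51 resistant tumours (1.96%, 0.0496 to 10.4%), which did not differ detectably (Fisher exact p = 1). The gene has separate starts for ARF, the outer one, and INK4A, the inner one, and each had a site close to it. In resistant tumour 33 the site had 18 reads and lay 913 bases past the ARF start, against the direction of the gene. In untreated tumour 4 it had 26 reads and lay 753 bases before the INK4A start, in the direction of the gene. In untreated tumour 56 the site had 1205 reads, 0.294% of the reads of that tumour, at rank 29, and lay 4856 bases past the INK4A start. This position was listed in 5 libraries, with 5 reads in the other 4 together. The promoter windows of both starts, from 250 bases before the start to 50 after, are given because sites flank them (RefSeq, GRCm38.p6, the assembly of mm10, minus strand, 5′ to 3′).
Cdkn2a, ARF start, chr4:89294570-89294869: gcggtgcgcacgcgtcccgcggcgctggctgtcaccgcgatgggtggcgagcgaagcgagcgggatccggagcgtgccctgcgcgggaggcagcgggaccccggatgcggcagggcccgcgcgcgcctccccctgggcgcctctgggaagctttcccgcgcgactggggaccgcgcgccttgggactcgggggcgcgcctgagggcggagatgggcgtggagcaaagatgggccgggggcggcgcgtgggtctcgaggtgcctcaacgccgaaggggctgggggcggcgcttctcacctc
Cdkn2a, INK4A start, chr4:89282143-89282442: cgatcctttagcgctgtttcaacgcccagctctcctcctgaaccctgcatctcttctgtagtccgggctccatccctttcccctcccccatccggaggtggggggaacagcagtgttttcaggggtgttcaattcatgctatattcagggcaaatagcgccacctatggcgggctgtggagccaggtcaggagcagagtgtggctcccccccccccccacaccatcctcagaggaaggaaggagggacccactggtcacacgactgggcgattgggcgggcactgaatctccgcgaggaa
Neither window holds the letters TTAA, which read the same on both strands. Across the 10 genes, 8 had RefSeq windows, 12 in all, and 3 of the 12 held TTAA (both of Mdm4 and the one of Mdm2), against 52.4% of all 32851 windows. No site of at least 10 reads lay inside any of the 12, most of which lack the target letters. The share of all windows that held such a site was not counted, so nothing is concluded from the absence of sites.

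Rb1, the retinoblastoma tumour suppressor, was the member hit in the most tumours, 14 in all. Its region spans chr14:73195502-73327791 (minus strand, identifier 19645, 132 kb). Resistant tumours with a hit numbered 4 of 51 (7.84%, 2.18 to 18.9%) and came from 3 mice. Untreated tumours with a hit numbered 10 of 94 (10.6%, 5.22 to 18.7%) and came from 8 mice. In resistant tumours 27, 11, 12 and 26 the strongest Rb1 site had 20, 40, 144 and 1247 reads. In the 10 untreated tumours it had from 11 to 770 reads, with a median of 33.5, so the groups overlapped. The highest untreated value, 770 reads in tumour 2, stood at rank 128 and the highest resistant value, in tumour 26, at rank 153, whereas the 144 reads of resistant tumour 12 stood at rank 37. The difference in share, -2.80 percentage points (odds ratio 0.716, 0.155 to 2.66), did not pass the test (Fisher exact p = 0.771, adjusted p = 1 over 2558 gene regions hit in at least 5 tumours, Benjamini-Hochberg). Permuting the treatment labels over mice gave p = 0.621. Counted as mice with a hit tumour, Rb1 stood at 3 of 25 resistant and 8 of 23 untreated mice, a difference of -22.8 percentage points (Fisher exact p = 0.0885, adjusted p = 0.484), where untreated mice gave more tumours each. Without the mouse of resistant tumours 11 and 12, left out after the data were seen, 2 resistant tumours were hit and the difference was -6.38 percentage points (p = 0.337).

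Insertions in Rb1 mostly opposed the direction of the gene. Of 15 sites, 12 were in the opposite orientation and 3 in the same one, in resistant tumours 4 and 0 and in untreated tumours 8 and 3. The excess had an unadjusted exact binomial p of 0.0352 and did not pass after adjustment (adjusted p = 1 over 1982 regions with at least 6 sites, of which 0.151% passed and 3.18% had an unadjusted p under 0.05). With 1 site per tumour, a count added after the data were seen, 11 of 14 were opposite (p = 0.0574), and among sites of at least 50 reads the orientations stood at 3 and 3. Between the groups the orientations showed no detectable difference (Fisher exact p = 0.516, adjusted p = 1, where 0.0% of 1357 regions passed). A stretch of 18.8 kb, from chr14:73235285 to chr14:73254045, 14.2% of the region, held 8 of the 11 untreated sites and 0 of the 4 resistant sites. These 8 came from 7 tumours of 6 mice, had 10 to 70 reads, and 7 of them opposed the gene. The bounds of the stretch were set at untreated sites after the positions were seen, and the lower one is a site outside TTAA. No test was made, and such stretches were not counted in other gene regions. The split of the stretch between the groups therefore cannot be read as a difference.

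Rbl1, which encodes the RB relative p107, spans chr2:157145894-157206534 (minus strand, identifier 19650) and was hit in 3 of 51 resistant tumours (5.88%, 1.23 to 16.2%) and 1 of 94 untreated tumours (1.06%). Resistant tumours 12, 11 and 40 had 18, 94 and 598 reads at their sites, and untreated tumour 80 had 198, within the resistant range. The difference of 4.82 percentage points (odds ratio 5.74, 0.447 to 308) did not pass the test (Fisher exact p = 0.125), and with fewer than 5 hit tumours the gene was outside the adjusted set. The permutation over mice gave p = 0.217. Resistant tumours 11 and 12 came from 1 mouse. Without that mouse, left out after the data were seen, the counts were 1 and 1 and the difference was 1.06 percentage points. The site of resistant tumour 40, at rank 80 with 0.173% of the reads, lay 705 bases before the RefSeq start and opposed the gene, whereas that of untreated tumour 80, at rank 112 with 0.278%, lay inside the gene in its orientation. The promoter window that lies between the site of tumour 40 and the gene is shown.
Rbl1, chr2:157204485-157204784, minus strand: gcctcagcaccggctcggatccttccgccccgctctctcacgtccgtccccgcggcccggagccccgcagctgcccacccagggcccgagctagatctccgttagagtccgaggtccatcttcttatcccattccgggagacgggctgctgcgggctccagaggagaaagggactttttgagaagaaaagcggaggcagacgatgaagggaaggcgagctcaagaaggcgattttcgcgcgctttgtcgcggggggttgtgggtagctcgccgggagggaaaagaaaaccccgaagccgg
It holds no TTAA.

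E2f3, a transcription factor that drives entry into S phase, spans chr13:29906575-29988063 (minus strand, identifier 13557) and was hit at nearly equal shares. The counts were 2 in the resistant group (3.92%, 0.478 to 13.5%) and 4 in the untreated group (4.26%, 1.17 to 10.5%). The resistant tumours 15 and 35 had 51 and 668 reads. The untreated tumours 38, 43, 22 and 5 had 11, 12, 24 and 141, so the ranges overlapped. The sites stood at 3 in each orientation. The difference was -0.334 percentage points (odds ratio 0.919, 0.0804 to 6.67, Fisher exact p = 1, adjusted p = 1), and over mice -9.39 percentage points (p = 0.407).

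Cdk6, the kinase partner of D-type cyclins, has the longest of the 8 regions, chr5:3341893-3522225 (plus strand, identifier 12571, 180 kb). Hits fell in 3 resistant tumours (5.88%, 1.23 to 16.2%) from 3 mice. Of the untreated tumours 8 were hit (8.51%, 3.75 to 16.1%), from 7 mice. The resistant tumours 10, 26 and 3 had 27, 101 and 146 reads at their strongest site. In the untreated tumours the reads ran from 14 to 212 with a median of 28.5, which spans the resistant range. The difference was -2.63 percentage points (odds ratio 0.674, 0.110 to 2.98) and did not pass (Fisher exact p = 0.747, adjusted p = 1, permutation over mice p = 0.550). Over mice the difference was -18.4 percentage points (Fisher exact p = 0.162, adjusted p = 0.557). Of 12 sites, 4 lay in the orientation of the gene and 8 opposed it (exact binomial p = 0.388, adjusted p = 1). The site with the most reads, 212 in untreated tumour 3, opposed it, and the largest percentage of a tumour's reads was 0.352%, in untreated tumour 91.

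**Figure D1:**
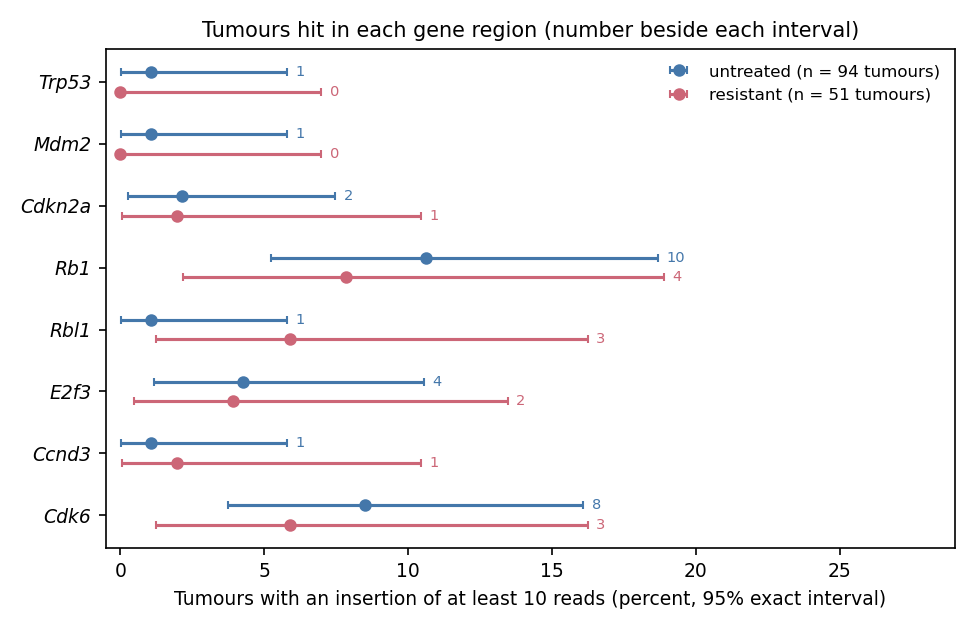
Percent of tumours hit in each of the 8 gene regions, with exact 95% intervals, for 94 untreated and 51 resistant tumours; the number beside each interval is the count of hit tumours. Intervals of the groups overlap in every gene, and Rb1 has the highest counts, 10 and 4.

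Ccnd3, which encodes cyclin D3, held the insertion with the best rank in its tumour and the largest percentage of its reads among the 10 genes, but was hit in 1 resistant and 1 untreated tumour (1.96% and 1.06%), a number at which the smallest Fisher exact p is 0.122. Its region spans chr17:47503051-47599688 (plus strand, identifier 12445). Untreated tumour 22 had 1 site of 90 reads, at 47534174. Resistant tumour 32 had 6 separate sites, of 10, 18, 24, 29, 38 and 739 reads. Only the last, at 47554231 in the orientation of the gene, was among the 100 strongest of its tumour, at rank 15 with 0.572% of the reads. It lay 39236 bases before the inner of the RefSeq starts of Ccnd3 and well past the outer one.

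The sites of resistant tumour 32 ran on past the gene. Within 500 kb on either side of Ccnd3 and inside it, this tumour had 19 sites with 1592 reads, of which 10 lay below the region, 6 inside it and 3 above. No other tumour had more than 2 in the same window, and 121 of the other 144 had 0. The next strongest, 393 reads at 47442961 and rank 26, lay 60.1 kb before the region. The library of this tumour had 2793 sites of at least 10 reads, 0.680% of which fell in the window. Without this tumour, left out after the data were seen, Ccnd3 was hit in 0 resistant tumours.

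**Figure D2:**
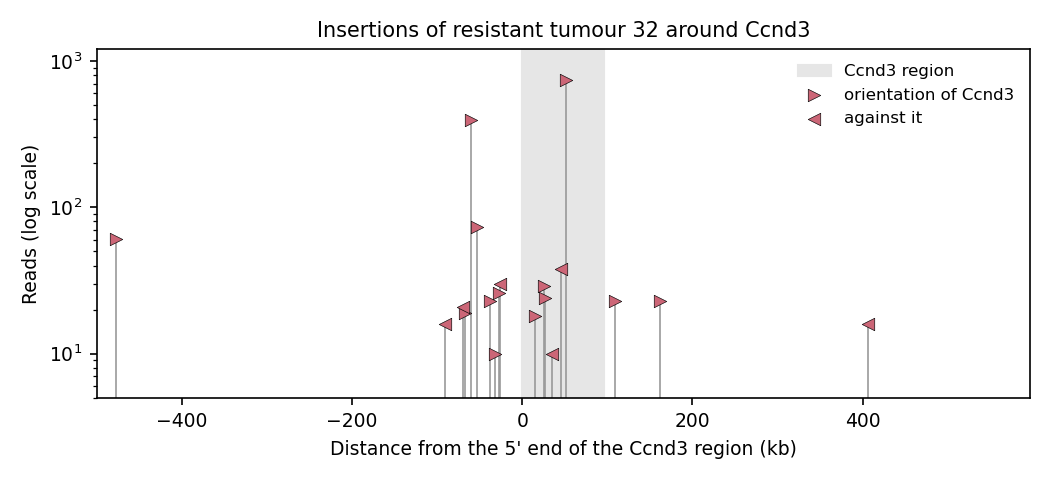
Sites of at least 10 reads of resistant tumour 32 within 500 kb of the Ccnd3 region (grey), by distance from the 5′ end of the region in kb and by reads on a log axis; triangles point right for the orientation of Ccnd3 and left against it. Of the 19 sites 6 lie in the region, where the highest has 739 reads.

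**Figure D3:**
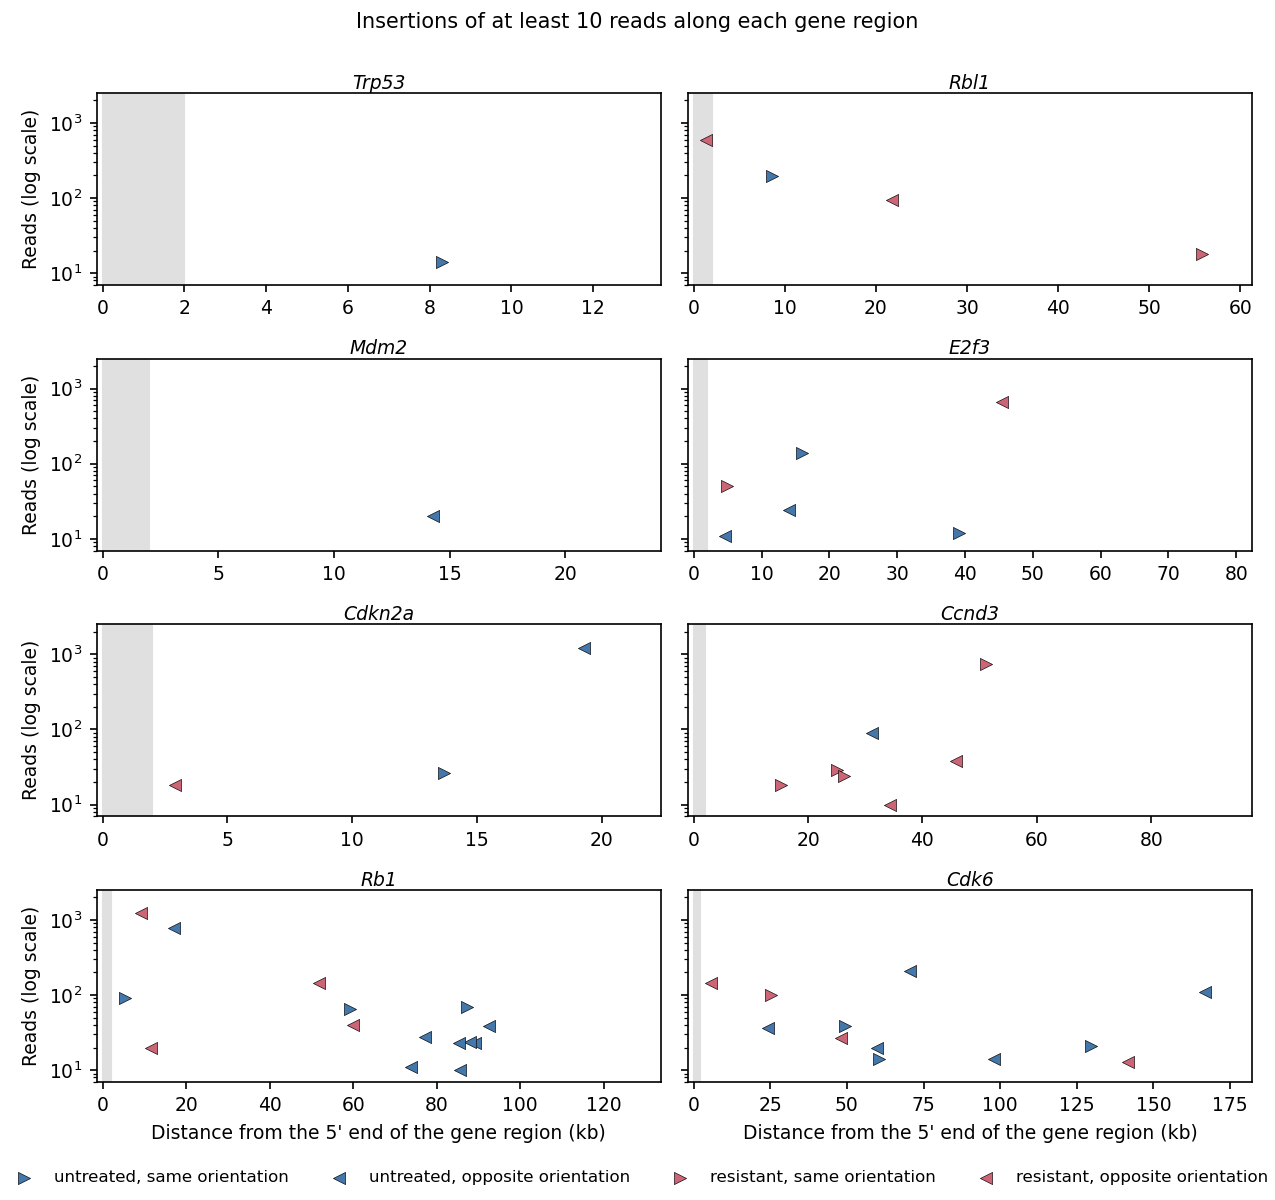
Sites of at least 10 reads along the 8 gene regions, by distance from the 5′ end of the region in kb and by reads on a log axis, blue for untreated and red for resistant tumours; triangles point right for the orientation of the gene and left against it, and grey marks the 2 kb before the gene. In Rb1, 8 of 11 untreated sites fall in a stretch of 18.8 kb, whose bounds were set after the positions were seen. Of the 15 sites there, 12 oppose the gene.

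Ordered by hit tumours in both groups together, the genes ran Rb1 (14), Cdk6 (11), E2f3 (6), Rbl1 (4), Cdkn2a (3), Ccnd3 (2), and Trp53 and Mdm2 (1 each). The exact intervals of neighbours in this order overlapped in each group. Set against length, the order changed. Cdkn2a had the most hit tumours per 100 kb of region, 13.5, followed by Rb1 with 10.6, Trp53 with 7.40, E2f3 with 7.36, Rbl1 with 6.60, Cdk6 with 6.10, Mdm2 with 4.19 and Ccnd3 with 2.07. The median over the 8, Mdm2 on chromosome 10 included, was 6.98 per 100 kb, beside 4.13 over the 12557 regions outside chromosome 10. The densities of Cdkn2a, Ccnd3, Trp53 and Mdm2 rest on 1 to 3 hit tumours each, and the densities were not tested. Cdkn2a stood at percentile 89.3 of those regions, Rb1 at 84.2 and Ccnd3 at 26.6. Mdm2 lies on chromosome 10, where the median region had 12.6 per 100 kb.

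None of the genes was called between the groups. Of the 8, 3 (Rb1, Cdk6 and E2f3) were hit in at least 5 tumours and entered the adjusted test, as did 19.1% of all regions, and 0 passed in either direction. Over all 2558 regions tested 0.0% passed as higher in resistant tumours and 0.0% as lower, and 3.01% had an unadjusted Fisher exact p under 0.05, which 0 of the 8 genes had. With labels permuted over mice 0.156% of the regions passed after adjustment and none of these 3 genes did. The 3 tested genes had a median difference of -2.63 percentage points, beside 0.563 over all regions tested. The share was higher in resistant tumours in 53.1% of the regions tested and in 0 of these 3 genes. Among all 8 it was higher for Rbl1 and Ccnd3. This direction turned for Ccnd3 with sites of at least 5 reads (-1.23 percentage points, 1 resistant and 3 untreated tumours hit). It turned as well for Rb1 with the 100 strongest sites of each tumour (1.96 percentage points, 1 and 0 tumours). With sites of at least 50 reads it turned for Cdk6 (1.79, 2 and 2 tumours) and E2f3 (2.86, 2 and 1 tumours), so these turns rest on few tumours. It also turned for all 3 tested genes when only the 35 resistant tumours with titles of the form Tgtumor were used. Hit counts then stayed the same, with Rb1 at 0.790 (4 and 10 tumours), Cdk6 at 0.0608 (3 and 8) and E2f3 at 1.46 (2 and 4). The 16 resistant tumours left out had 0 hits in these 3 genes.

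At least 1 of the 8 genes was hit in 11 of 51 resistant tumours (21.6%, 11.3 to 35.3%), which belonged to 9 mice. The untreated count was 27 of 94 (28.7%, 19.9 to 38.98%), in 15 mice. With sites of at least 50 reads the order turned, at 15.7% and 10.6%. Hit tumours had more sites than the rest. The median number of sites of at least 10 reads was 2178 in hit and 405.5 in other resistant tumours, and 1102 and 353 in untreated tumours. With all tumours ordered by that number and divided into 4 sets, 2 of 37, 4 of 36, 9 of 36 and 23 of 36 were hit, from the fewest sites to the most. By the form of the sample title, which no group shared with the other, 24 of 61 (TgTum) and 3 of 33 (tgTum) untreated tumours and 10 of 35 (Tgtumor) and 1 of 16 (Mouse) resistant tumours were hit. Their median site numbers were 729, 258, 637 and 241.5. The part of site number in the shares of single genes was not tested beyond the alternatives that took a fixed number of sites per tumour. Per 10000 sites outside chromosome 10, the genes took 6.47 (3.96 to 9.997) in the resistant group and 5.71 (3.79 to 8.25) in the untreated group, intervals that cover counting only. Without resistant tumour 32, left out after the data were seen, the resistant value was 4.90, so that this tumour set the direction.

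**Figure D4:**
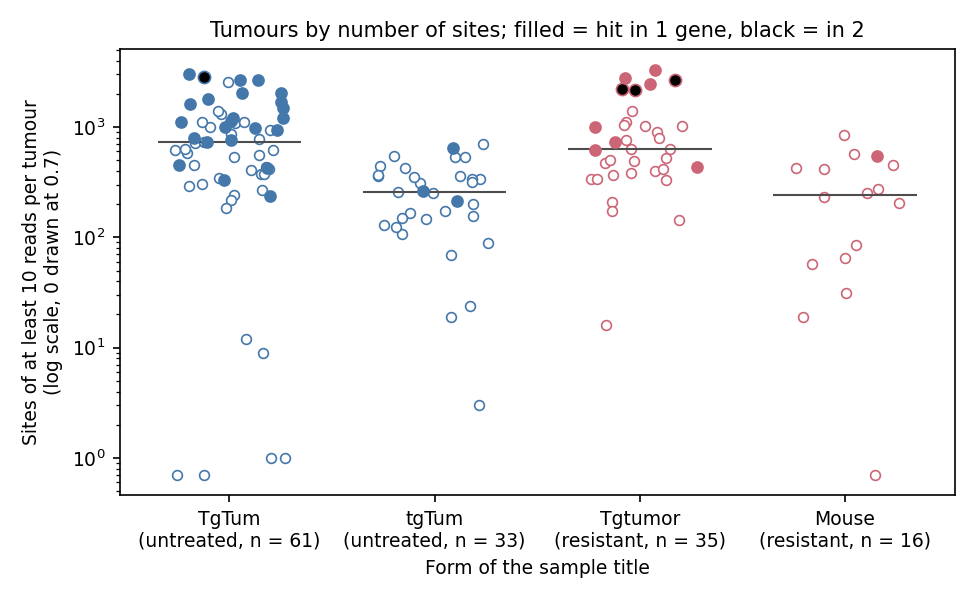
Number of sites of at least 10 reads per tumour, on a log axis, by the form of the sample title; open circles are tumours hit in none of the 8 genes, filled circles in 1 and black circles in 2, and lines are medians. Most hit tumours have many sites, with medians of 2178 (resistant) and 1102 (untreated), though some lie below the median of their form.

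Few tumours were hit in several of these genes. Resistant tumours 11 and 12, from the same mouse, each had an insertion in Rb1 and in its relative Rbl1, at positions that differed between the tumours. Resistant tumour 26 was hit in Rb1 and Cdk6, and resistant tumour 40, of the same mouse, in Rbl1. Untreated tumour 22 was hit in Ccnd3 and E2f3. Resistant tumours 11, 12 and 26 and untreated tumour 22 had 2641, 2205, 2178 and 2831 sites of at least 10 reads. The median over all tumours was 447. The remaining 34 of the 38 hit tumours were hit in 1 gene. Over mice, 2 of 9 hit resistant mice and 9 of 15 hit untreated mice had sites in at least 2 of the genes, and 2 and 12 had at least 2 hit tumours. Untreated mice gave more tumours each, 94 from 23 mice beside 51 from 25, and these counts per mouse were not tested.

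Sites in the 100 kb on either side were counted as well, where other genes also lie. Around Trp53 5 tumours had a site, 3 resistant and 2 untreated, the strongest with 233 reads at rank 30 in untreated tumour 40, 47.7 kb before the region. The flanks of Rb1 were hit in 7 resistant and 13 untreated tumours. Beyond the 3′ end of the gene, which lies at the lower coordinates, these were 6 resistant and 5 untreated tumours, and beyond the 5′ end 1 and 8. Around Mdm2, on the donor chromosome, 5 resistant and 12 untreated tumours had a site. Ccnd2, with no site inside, had sites nearby in 0 resistant and 5 untreated tumours, the strongest with 143 reads 5.49 kb past its upper bound. The flanks of Mdm4 were hit in 1 and 2 tumours, with 395 reads at most. For the remaining genes the resistant and untreated counts were 3 and 6 (Cdk6), 1 and 7 (E2f3), 2 and 4 (Ccnd3), 2 and 1 (Rbl1) and 1 and 2 (Cdkn2a). These counts were not tested, the untreated group held more tumours (94 beside 51), and the flanks of gene regions outside the 10 were not counted.

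Of 42 other genes of the cell cycle and p53 pathways, 33 had a region, 28 were hit in at least 1 tumour and 5 in none. Of all regions outside chromosome 10, 17.6% were hit in none. Of the 33, 6 were hit in at least 5 tumours (18.2%, beside 19.1% of all regions), and 0 of the 6 passed in either direction or had an unadjusted p under 0.05. Trp63, the p53 relative that maintains basal epithelial cells, led with 6 resistant tumours (11.8%) and 10 untreated tumours (10.6%). Cdk1, the mitotic kinase, was hit in 3 and 3 tumours, Lin52, a subunit of the DREAM and MuvB complexes, in 2 and 4, Atm, the DNA damage kinase, in 3 and 2, E2f7, a repressor of the E2F family, in 3 and 2, and Skp2, the ubiquitin ligase receptor for the CDK inhibitor p27, in 1 and 4. Cdk1 and E2f7 lie on chromosome 10. Adjusted p was 1 for each of these 6 by the Fisher exact test. The share was higher in resistant tumours for 4 of the 6, beside 53.1% of all regions tested. Their median difference was 1.91 percentage points, beside 0.563 over all regions tested, and neither was tested for the 6 as a set.

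Shares in the authors' deposited table, whose counting rule is its own, were higher for most of these genes. In the authors' deposited table Rb1 stood at 11.76% of resistant and 11.7% of untreated tumours, Cdk6 at 13.73% and 9.57%, E2f3 at 9.8% and 7.45%, and Rbl1 at 9.8% and 2.13%. For Cdkn2a the authors' deposited table gave 5.88% and 6.38%, the latter being 6 untreated tumours, where 2 were counted here. With sites of at least 1 read and shared positions kept, the count here was also 3 resistant and 6 untreated tumours. That count includes libraries that share the position of untreated tumour 56, listed in 5 libraries with 5 reads outside that tumour. For Ccnd3 it gave 3.92% and 4.26%, and for Trp53 and Mdm2 0.0% and 1.06% each. That table also gives a signed −log10 p score of a common integration site test, whose method is not given in the sources used here. Among these genes the score was highest for Ccnd3 in resistant tumours, 4.06, where 2 tumours carried an insertion by that table. It ranked 144 of the 13391 gene regions in the authors' deposited table, those on the donor chromosome included. The next scores among these genes were 1.73 for Cdkn2a in resistant tumours and 1.31 for Rb1 in untreated tumours.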

How the data were processed

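DNA next to the transposon was amplified by splinkerette PCR from 145 tumours and sequenced in 4 pools, per the labels' protocols. Per the submitters' processing notes, coordinates are those of mm10. The aligner and the caller of sites are not given in the sources used here. Read counts per site and library were deposited as whole numbers, with no scaling by the authors that the values show. A second deposited table, of regions, gave, per the file headers, the percent of tumours with an insertion and a signed −log10 p score, used only as deposited. A further 725 per-sample columns of the site table were not used. Although the title of the series speaks of ATAC-seq, its design text describes integration mapping, and the files hold insertion sites.

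Groups came from the treatment labels and mice from the titles. These give 48 mice where the labels state 53, and a single resistant title with a longer number was read as the mouse of another tumour, so counts of mice rest on that reading. An untreated library with the suffix R2 has the mouse and gland of another one, so the titles name 93 untreated tumours, and both libraries were kept as tumours. Tumours were numbered in accession order, and the numbers pair nothing. Where several tumours had reads at a position and strand, the site went to the one with the highest count, and 12 tied positions of at least 10 reads were dropped. This rule can favour deep libraries. Libraries held 51 to 1604365 reads (median 136932 resistant, 48339 untreated) and 0 to 3320 sites of at least 10 reads (median 473 and 431). Regions were those of the authors' table, extended by 2 kb, found by identifier, and 12384 of 13391 identifiers matched RefSeq. Strands came from RefSeq promoter windows, or from the extended end of the region where there was none, and both sources gave the same strand in 99.8% of 8551 regions. With no genome, exons and introns were not assigned.

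Shares were compared by two-sided Fisher exact tests with Benjamini-Hochberg adjustment over regions hit in at least 5 tumours (threshold 0.05), with Clopper-Pearson 95% intervals. Orientation was compared with an even split by exact binomial tests, with sites of a tumour within 10 bp counted once. Tumours of 1 mouse are not independent, so labels were also permuted over mice (100000 resamples). Intervals cover counting error only, and PCR reads that carry no molecular identifier do not count molecules. The tests were tested on simulated data. There the permutation over mice made more false calls than its threshold allows, so its small p-values call for caution. The simulated tumours were drawn independently, without likeness within a mouse or differences in the number of sites. How the permutation behaves with such likeness, as in these data, was not tested. Alternatives varied the read minimum, the number of sites, shared positions, title forms and the unit of counting. The genes, lists and tests were chosen with earlier results of these data known. Genes named were the 10 and, of 42 others, the 6 hit in the most tumours. Python 3.11.15, SciPy 1.17.1, NumPy 2.4.6, pandas 2.3.3 and matplotlib 3.10.9 were used.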

Additional observations from a re-analysis of the deposited data

How the results depend on the processing

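No paired analysis was possible because no mouse, as read from the titles, gave tumours to both groups. Tumour numbers were given in accession order and pair no samples. None of the 8 genes was called under any alternative run. The percent of resistant and untreated tumours hit in any of them, 21.6% and 28.7%, was 5.88% and 1.06% with 100 sites per tumour and 5.88% and 7.45% with sites of at least 0.1% of the reads. With sites of at least 1 read and shared positions kept, added after the data were seen, it was 41.2% and 40.4%. It was 15.7% and 10.6% with at least 50 reads, 13.7% and 10.6% with 300 sites, and 28.6% and 28.7% with the Tgtumor form alone, so that the resistant percent was the higher one with 50 reads, with 100 or 300 sites and with 1 read. Over all gene regions, 0 were called by the Fisher exact test (77 at an unadjusted p under 0.05), 1 with at least 0.1% of the reads, 14 with shared positions kept, 66 with at least 1 read and shared positions kept, and 4 by permutation over mice, which was lenient in simulated data.

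Differences in share that changed sign are given in percentage points, with the resistant and untreated tumours hit in brackets. Rb1 stood at 1.96 (1 and 0) with 100 sites and 0.730 (2 and 3) with 300 sites. It stood at 0.897 (1 and 1) with 0.1% of the reads and 0.790 (4 and 10) with the Tgtumor form alone. Cdk6 stood at 1.79 (2 and 2) with at least 50 reads and 0.0608 (3 and 8) with the Tgtumor form. With at least 1 read and shared positions kept, Cdk6 stood at 3.09 (7 and 10). E2f3 stood at 2.86 (2 and 1) with at least 50 reads and at 2.86 (2 and 1) with 300 sites. It stood at 1.46 (2 and 4) with the Tgtumor form and 2.36 (5 and 7) with at least 1 read and shared positions kept. Cdkn2a stood at 1.79 (2 and 2) with at least 5 reads and 0.729 (1 and 2) with the Tgtumor form. Ccnd3 stood at -1.23 (1 and 3) with at least 5 reads and -0.348 (1 and 1 mice) over mice. Without resistant tumour 32, which was added later, it stood at -1.06 (0 and 1). The cause was not tested. Rbl1 kept its direction under the 15 alternatives that gave a value, with unadjusted p from 0.0227 (at least 1 read and shared positions kept, adjusted p = 0.369) to 1. With 1 hit tumour no unadjusted p below 0.352 can be reached by the Fisher exact test, and with 2 none below 0.122. With sites of at least 10 reads, Trp53, Mdm2 and Ccnd3 therefore could not pass at any difference. With at least 1 read and shared positions kept, Ccnd3 was hit in 3 and 4 tumours and entered the adjusted set, where it did not pass.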
